A study of Mus musculus with 22 samples.

Results

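DNA replication and S phase are described here through 56 genes: the machinery that licenses, opens, copies and repackages DNA, the enzymes that supply its nucleotides, and the G1/S regulators that switch these genes on. The genes were taken as a fixed list of symbols; all 56 are among the 24982 gene rows of the count files, and all 56 passed the filter on low counts that kept 12387 genes for testing. The samples were bone marrow eosinophils of wild type C57BL6 mice, sorted into 4 maturation stages (I to IV) and profiled by RNA sequencing in 22 libraries. Every mouse received 400 ng of recombinant murine IL-33 intraperitoneally on each of 7 days, so both antibody groups carried the IL-33 treatment. Beginning with the last IL-33 dose, mice were given 3 daily injections of 400 µg of either an antibody against IL-5 or a control isotype antibody. The comparison asked how neutralising IL-5 alters bone marrow eosinophil maturation in IL-33 induced eosinophilia. Each stage had 3 libraries per antibody, except stage II with 2. Cells carrying CD45R, CD90.2, Ly6G or NK1.1 were depleted first. The sort then used CD117, CD200R3, CD29, CD55, F4/80, PIR-A/B and Siglec-F and reached a purity of 95% or more. The labels do not give the gate of each stage or the age and sex of the mice, and do not say whether libraries came from single or pooled animals.

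In a dividing cell the origin recognition complex, Cdc6 and Cdt1 load the Mcm2 to Mcm7 helicase onto DNA in G1. Mcm10, Cdc45 and the GINS complex then activate it at S phase, and polymerases copy the strands while PCNA, loaded by replication factor C, tethers them. The genes for much of this machinery are transcribed at the G1/S boundary by E2F factors, which are released when cyclin-dependent kinases inactivate the retinoblastoma family. Eosinophils arise from dividing bone marrow progenitors, leave the cell cycle as their granules mature, and depend on IL-5 for expansion and survival.

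Promoter letters of the list are given first, and the stretches below are shown because Mcm5, Mcm6 and Cdc6 were among the genes that fell under anti-IL5 at stage III, whereas Slbp was not. These examples do not stand for the list: an E2F word was found in 6 of the 24 genes that fell at stage III and have a promoter entry (25%), and in 12 of the 22 not called (54.5%). Promoter sequences were from RefSeq on build GRCm38.p6, covering 250 bases before to 50 after each start, and 46 of the 56 genes had an entry. The motif searched was any of the 8-base words TTTCCCGC, TTTGGCGC, TTTCGCGC and TTTGCCGC on either strand. At least 1 word was present in 18 of the 46 genes (39.1%), against 704 of 27025 genes with a promoter entry (2.6%) and 5 of 51 genes of a G2/M list (9.8%). The CHR word TTTGAA, a cell cycle element of G2/M promoters, was present in 7 of the 46 (15.2%), in 38 of the 51 G2/M genes (74.5%) and in 20.2% of all genes. The CCAAT word was in 29 of the 46 (63.0%) and in 41.1% of all genes. Each stretch holds the 170 bases that end next to the start, 5′ to 3′ on the gene's strand, with E2F words in capitals. In Mcm5 (chr8:75109339-75109508, plus strand) 2 words on opposite strands overlap; Mcm6 (chr1:128359706-128359875, minus strand) has 3, of which the first 2 overlap; Cdc6 (chr11:98907981-98908150, plus strand) has 1, and Slbp (chr5:33652575-33652744, minus strand) has none in this stretch. A match is a description of letters and not of binding.
Mcm5: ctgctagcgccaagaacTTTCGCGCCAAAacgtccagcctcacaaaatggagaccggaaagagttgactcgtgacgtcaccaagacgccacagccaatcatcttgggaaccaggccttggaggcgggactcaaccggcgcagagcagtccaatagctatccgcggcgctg
Mcm6: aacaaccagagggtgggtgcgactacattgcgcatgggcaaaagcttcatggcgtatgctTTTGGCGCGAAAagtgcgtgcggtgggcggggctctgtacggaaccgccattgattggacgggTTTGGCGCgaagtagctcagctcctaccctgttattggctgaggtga
Cdc6: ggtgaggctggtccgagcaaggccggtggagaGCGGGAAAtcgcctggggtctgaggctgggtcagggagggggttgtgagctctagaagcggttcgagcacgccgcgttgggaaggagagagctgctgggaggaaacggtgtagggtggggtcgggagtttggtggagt
Slbp: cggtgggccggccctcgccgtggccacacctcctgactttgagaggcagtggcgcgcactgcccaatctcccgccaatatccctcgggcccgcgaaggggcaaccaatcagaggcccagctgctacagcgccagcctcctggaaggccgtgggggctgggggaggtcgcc

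Libraries held 7161264 to 14781250 gene counts, and 3 counts, the lowest level taken as measurable, corresponded to 0.222 to 0.411 counts per 1000000 (CPM). The 56 genes together drew 11690 to 92140 counts per library. Levels below are CPM on TMM-scaled totals of tested genes and are listed in order of replicate number. The eosinophil identity of the sorted cells was checked with 10 defining genes, which summed to 43648 to 50778 CPM at stage I and 10739 to 12119 CPM at stage IV in isotype libraries. From stage I to IV 6 of the 10 had a lower mean, with the granule protein Epx at 22436 and 389 CPM, and 4 a higher one, with the eotaxin receptor Ccr3 at 4.89 and 2719 CPM. Genes of other lineages were also present: azurophil granule genes such as Mpo summed to 3701 to 5436 CPM at stage I isotype and 1009 to 5854 CPM at stage I anti-IL5, and to at most 480.2 CPM from stage II on. The T and NK cell genes Cd8a and Ncr1 and the 4 globin genes searched were listed at 0 in all libraries. The other genes of these 2 lists were not. The T cell gene Cd3d had group means of 2.53 to 10.8 CPM, and the erythroid genes Tfrc and Klf1 had 114 and 23.1 CPM at stage I isotype. The zeros therefore do not show that these lineages were absent. The 9 basophil and mast cell genes summed to 2848 to 3573 CPM at stage I isotype and 221 to 310 CPM at stage IV isotype. Of these 7 had a lower and 1 a higher mean at stage IV. The part of such shifts in the levels below was not tested. A change in any level below may reflect, among other things, fewer cells in S phase or less RNA per cell, which cannot be told apart in bulk samples.

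**Figure D1:**
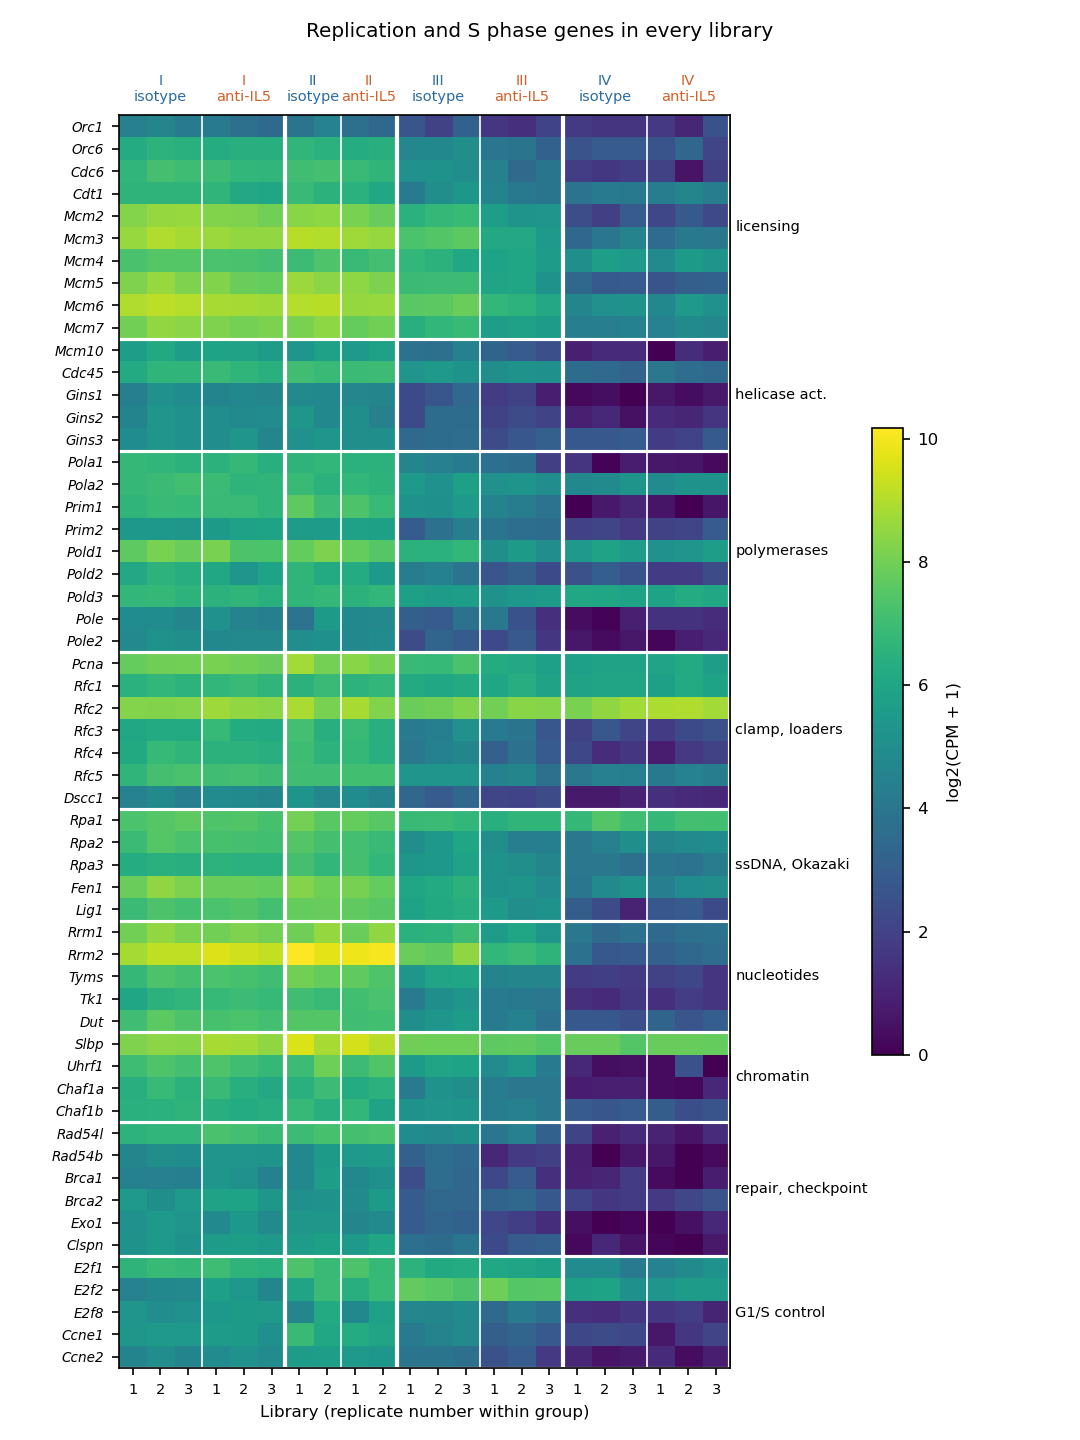
Heat map of log2(CPM + 1) for the 56 genes (rows, grouped by role) in each of the 22 libraries (columns, grouped by stage and antibody, numbered by replicate). Most rows are bright at stages I and II, dimmer at stage III and dark at stage IV; Rfc2 stays bright throughout and E2f2 is brightest at stage III.

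Per kilobase of exon (union of GENCODE M21 exons), the most abundant transcript of the list at stage II isotype was Rrm2, the regulated subunit of ribonucleotide reductase, at 363 CPM per kb. Pcna, the sliding clamp, followed at 143, then the helicase subunit Mcm3 at 139, Mcm6 at 115 and the nuclease Fen1, which removes the flaps of Okazaki fragments, at 114 CPM per kb. The lowest were Brca2, a mediator of homologous recombination, at 2.50 CPM per kb and Pole, the catalytic subunit of the leading strand polymerase, at 2.67. These are levels of RNA per length and not of protein.

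Across maturation in isotype mice, replication genes were high at stages I and II, fell at stage III and fell again at stage IV. Their summed level was 6814, 8539.8 and 7859 CPM in the stage I libraries and 10039 and 9118 CPM at stage II. It was 3198, 3330.0 and 3777 CPM at stage III and 1229, 1444 and 1401 CPM at stage IV. No library of stage III or IV reached any library of stage I or II, and the ranges of stages III and IV were also apart. The mean was highest at stage II for 45 genes, at stage I for 10 and at stage III for E2f2 alone. At stage IV the median gene stood at 5.91% of its stage I mean, with E2f2 at 197%, Rfc2 at 115% and Rpa1 at 77.7% as the highest.

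**Figure D2:**
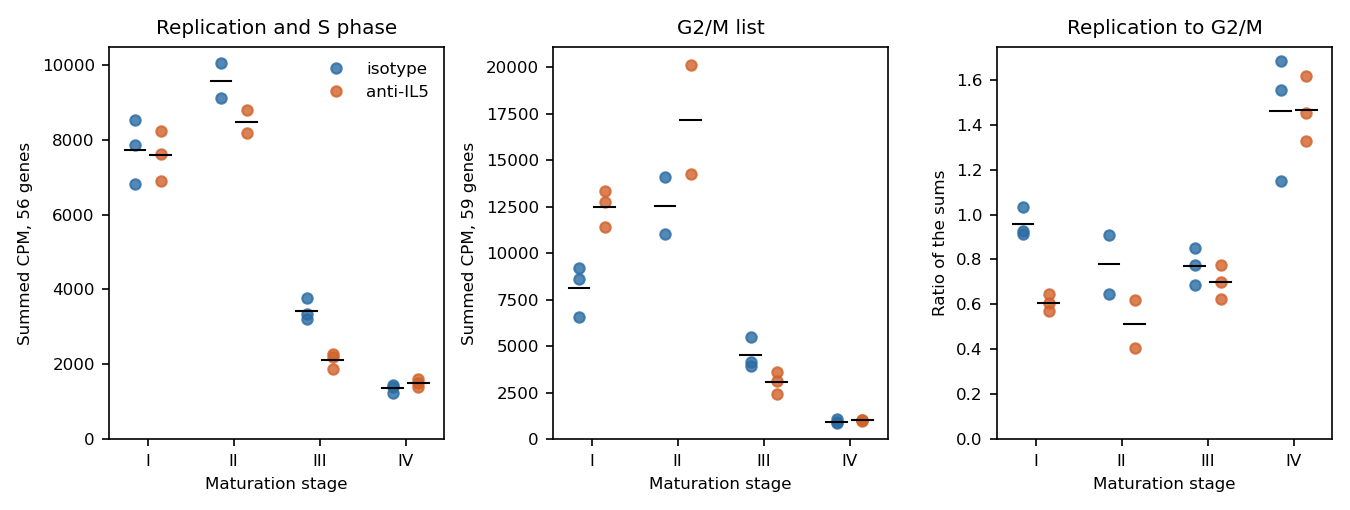
Summed CPM of the 56 replication and S phase genes (left) and of 59 G2/M genes (middle), and the ratio of both sums (right), by maturation stage; each point is a library, black lines are group means. The replication sum of stage III libraries runs from 3198 to 3777 CPM under isotype and from 1884 to 2267 CPM under anti-IL5, and the ratio at stage I from 0.915 to 1.03 and from 0.571 to 0.647.

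From stage I to stage II in isotype libraries, 5 of the 56 genes rose and 0 fell by edgeR's quasi-likelihood test (Benjamini-Hochberg adjusted p under 0.05 over all genes), a share to be read against the 7.39% of all 12387 genes called higher. Rrm2 stood at 443, 587 and 577 CPM at stage I and 1150.2 and 863 CPM at stage II, with a log2 fold change of 0.91 ± 0.25 (SE; adjusted p = 0.0221). Tyms, which makes thymidylate, rose from 107, 162 and 142 CPM to 253 and 214 CPM (log2 0.77 ± 0.20, adjusted p = 0.0162). Both enzymes supply deoxynucleotides, and neither had a stage II library as low as any stage I library. Slbp, which binds the stem-loop of histone mRNAs, was at 290.1, 338 and 326 CPM and 771 and 455 CPM (log2 0.95 ± 0.18, adjusted p = 0.00183). Ccne1, the cyclin E1 partner of Cdk2 at G1/S, was at 40.5, 42.7 and 43.9 CPM and 115 and 68.2 CPM (log2 1.11 ± 0.31, adjusted p = 0.0233). E2f2, an activating E2F, was at 21.7, 25.8 and 26.8 CPM and 60.0 and 122 CPM (log2 1.88 ± 0.29, adjusted p = 0.000245). For all of these genes the stages did not overlap, although the stage II libraries of Slbp, Ccne1 and E2f2 lay far from each other. Such a lack of overlap was found in 18 of the 56 genes and in 4850 of all 12387 genes. The count of 5 fell to 2 without stage I isotype replicate 1 and to 1 without stage II isotype replicate 1, and only E2f2 was called whichever library was left out. No gene of the licensing, helicase activation, polymerase, clamp, single strand or repair groups was called in this step. Whether the role groups differed was not tested.

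From stage II to stage III in isotype libraries, 54 genes fell and 1 rose, with a median log2 fold change of -1.80, where 18.1% of all genes were called lower, 19% higher, and the median over all genes was 0. All 10 licensing genes fell. Cdc6, the ATPase that loads the helicase, went from 129.8 and 143 CPM to 34.0, 35.9 and 31.0 CPM (log2 -2.02 ± 0.30, adjusted p = 3.03e-05). Mcm3 went from 534 and 508 CPM to 156, 174 and 196 CPM (log2 -1.57 ± 0.23, adjusted p = 2.8e-05). Orc6, a subunit of the origin recognition complex, went from 103 and 89.5 CPM to 24.9, 25.5 and 31.6 CPM (log2 -1.81 ± 0.28, adjusted p = 3.38e-05). Cdt1, the partner of Cdc6, went from 119 and 90.4 CPM to 17.3, 31.1 and 40.7 CPM (log2 -1.81 ± 0.28, adjusted p = 3.51e-05). In each of these genes all stage III libraries lay below all stage II libraries. How many of all genes lacked overlap at this step is not given here. A lack of overlap is therefore not read as an excess, here or in the next paragraphs on this step. Mcm4 fell least of the group (log2 -0.72 ± 0.22, adjusted p = 0.013), and this call was not kept in every fit without 1 library.

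All 5 helicase activators fell. The GINS complex holds the helicase together with Cdc45, and its subunit Gins1 went from 27.7 and 25.9 CPM to 3.82, 5.51 and 10.2 CPM (log2 -2.03 ± 0.42, adjusted p = 0.000683). Gins2 went from 40.4 and 25.6 CPM to 3.82, 11.2 and 11.1 CPM (log2 -1.91 ± 0.38, adjusted p = 0.000439) and Gins3 from 34.6 and 40.1 CPM to 10.2, 11.0 and 11.3 CPM (log2 -1.78 ± 0.30, adjusted p = 9.41e-05). All 9 polymerase genes fell as well. The furthest was Pole2, the accessory subunit of the leading strand polymerase, from 30.9 and 33.8 CPM to 3.95, 9.10 and 6.46 CPM (log2 -2.30 ± 0.41, adjusted p = 0.000163). Pold2, its counterpart on the lagging strand, went from 99.4 and 74.0 CPM to 18.1, 21.0 and 13.7 CPM (log2 -2.30 ± 0.30, adjusted p = 7.82e-06), and Pola1, the catalytic subunit of the polymerase that starts each strand with primase, from 97.3 and 106 CPM to 24.6, 20.7 and 17.8 CPM (log2 -2.27 ± 0.42, adjusted p = 0.00028). The stages did not overlap in any of these 6 genes.

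Among the clamp and its loaders 6 of 7 genes fell at stage III. Rfc4, a subunit of the clamp loader, fell furthest of the whole list, from 127 and 93.7 CPM to 15.1, 21.3 and 24.3 CPM (log2 -2.44 ± 0.33, adjusted p = 9.41e-06). Pcna fell from 427 and 262 CPM to 115, 111 and 151 CPM (log2 -1.46 ± 0.20, adjusted p = 1.21e-05). Rfc3, a further loader subunit, went from 138 and 83.5 CPM to 17.3, 20.1 and 34.5 CPM (log2 -2.21 ± 0.36, adjusted p = 7.11e-05), and Dscc1, part of an alternative loader used in sister chromatid cohesion, from 37.8 and 25.5 CPM to 9.29, 6.47 and 9.59 CPM (log2 -1.91 ± 0.27, adjusted p = 1.49e-05). Rfc2, a subunit of the same loader as Rfc4, was at 471 and 276 CPM and 237, 252 and 304 CPM, so the stages overlapped, and it was the one gene of the list not called (log2 -0.50 ± 0.21, adjusted p = 0.0672). The 5 genes of single strand binding and Okazaki fragment joining all fell, the nuclease Fen1 from 310.6 and 242 CPM to 63.0, 74.3 and 91.2 CPM (log2 -1.86 ± 0.26, adjusted p = 1.84e-05), the single strand binding subunit Rpa2 from 175 and 145 CPM to 31.7, 42.0 and 61.8 CPM (log2 -1.82 ± 0.27, adjusted p = 3.06e-05) and the replicative ligase Lig1 from 219 and 224 CPM to 59.4, 71.1 and 79.8 CPM (log2 -1.66 ± 0.31, adjusted p = 0.00029).

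All 5 nucleotide supply genes fell at stage III: Rrm2 from the stage II values above to 238, 207 and 353 CPM (log2 -1.92 ± 0.25, adjusted p = 7.88e-06), and Tk1, the S phase thymidine kinase, from 129.8 and 119 CPM to 16.5, 32.4 and 38.1 CPM (log2 -2.09 ± 0.25, adjusted p = 3.84e-06). Dut, which clears dUTP, went from 176 and 175 CPM to 32.8, 39.5 and 47.8 CPM (log2 -2.13 ± 0.21, adjusted p = 5.8e-07), and Tyms fell to 41.2, 60.1 and 62.4 CPM (log2 -2.09 ± 0.20, adjusted p = 5.25e-07). No stage III library of these enzymes reached a stage II library. Chromatin copying genes fell in 4 of 4 cases: Chaf1a, the large subunit of the histone chaperone CAF-1, went from 86.8 and 125 CPM to 16.5, 36.7 and 31.8 CPM (log2 -1.90 ± 0.31, adjusted p = 7.43e-05), Uhrf1, which links replication to maintenance of DNA methylation, from 125 and 241 CPM to 46.1, 61.0 and 58.4 CPM (log2 -1.73 ± 0.56, adjusted p = 0.0223), and Chaf1b, the middle CAF-1 subunit, from 112 and 85.5 CPM to 35.6, 38.6 and 37.9 CPM (log2 -1.40 ± 0.22, adjusted p = 3.88e-05). Repair and checkpoint genes fell in 6 of 6 cases. The nuclease Exo1 went from 40.5 and 40.4 CPM to 6.49, 8.92 and 7.97 CPM (log2 -2.37 ± 0.43, adjusted p = 0.000184), the recombination motor Rad54l from 125 and 146 CPM to 30.2, 26.7 and 32.4 CPM (log2 -2.19 ± 0.31, adjusted p = 1.74e-05) and the recombination and checkpoint factor Brca1 from 26.1 and 50.8 CPM to 4.33, 11.5 and 9.48 CPM (log2 -2.18 ± 0.51, adjusted p = 0.00194).

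Slbp fell from its stage II peak to 251, 244 and 242 CPM (log2 -1.32 ± 0.18, adjusted p = 1.36e-05). Ccne1 fell to 17.3, 22.2 and 26.8 CPM (log2 -2.04 ± 0.31, adjusted p = 3.68e-05), below all its stage I libraries. Ccne2, the other E cyclin, went from 47.9 and 49.8 CPM to 14.1, 14.3 and 12.6 CPM (log2 -1.84 ± 0.34, adjusted p = 0.000269).

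Within the E2F factors the direction split. E2f1, the activator usually named first for S phase genes, went from 158 and 114 CPM at stage II to 93.9, 70.7 and 75.0 CPM at stage III (log2 -0.77 ± 0.24, adjusted p = 0.014), and E2f8, an atypical repressor of the family, from 24.1 and 73.9 CPM to 25.5, 24.3 and 28.0 CPM (log2 -0.92 ± 0.36, adjusted p = 0.0477). E2f2 rose further, to 209, 188 and 158 CPM (log2 1.02 ± 0.30, adjusted p = 0.00989). It then fell at stage IV to 53.6, 59.1 and 33.5 CPM (log2 -1.92 ± 0.27, adjusted p = 8.05e-06), still above stage I (log2 0.98 ± 0.27, adjusted p = 0.00283). Every stage III library of E2f2 lay above every library of the other isotype stages, at a time when 54 of the other 55 genes had fallen. The E2f8 values at stage II differed widely between its libraries, and the call was lost without stage II isotype replicate 2 or any 1 stage III library (highest adjusted p = 0.873; log2 from -1.49 to 0.11). E2f1 was not called without stage II isotype replicate 1 or stage III isotype replicate 2 (highest adjusted p = 0.22), nor E2f2 without stage II isotype replicate 1 (0.179).

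**Figure D3:**
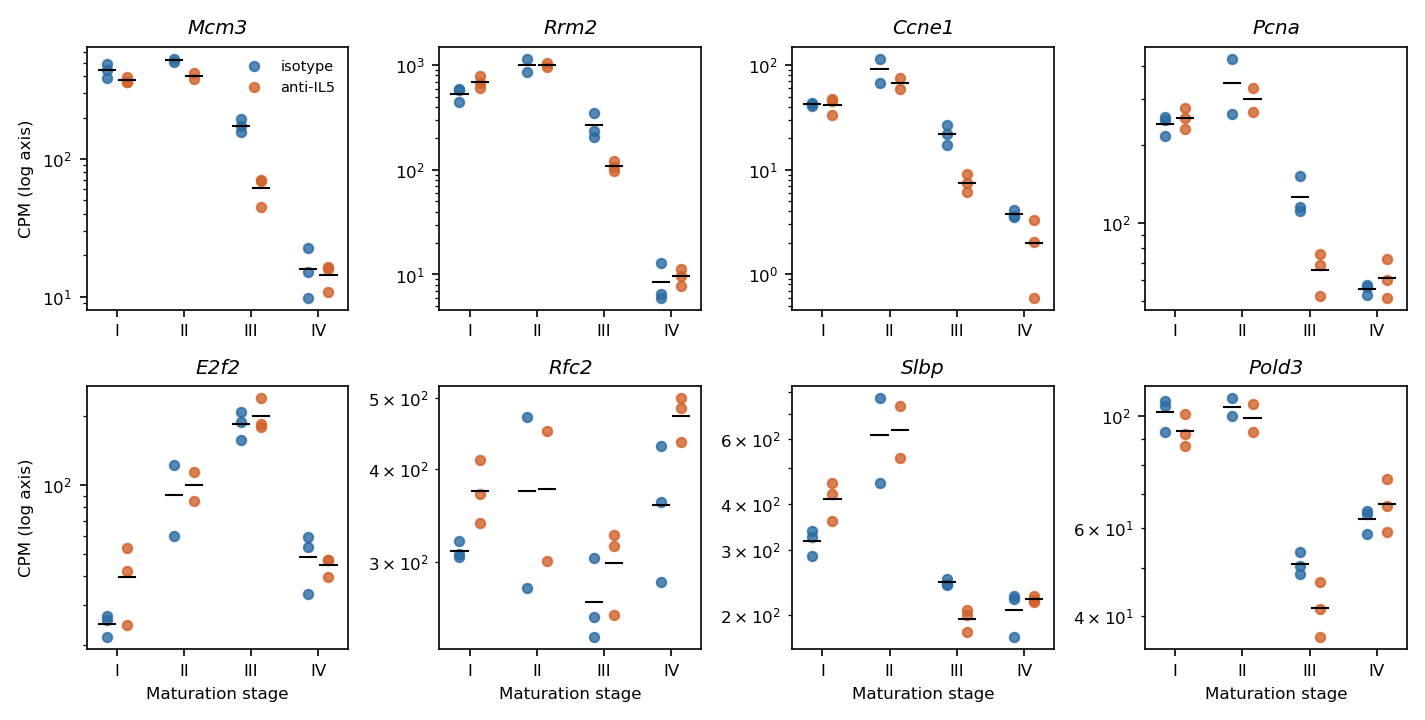
CPM (log axis) of 8 genes by stage and antibody; each point is a library and black lines are group means. Mcm3, Rrm2, Ccne1 and Pcna lie lower under anti-IL5 at stage III with no overlap, E2f2 peaks at stage III under both antibodies, and Rfc2, Slbp and Pold3 were not called lower at stage IV than at stage III under either antibody.

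From stage III to stage IV in isotype libraries, 51 genes fell and 0 rose by edgeR (median log2 fold change -2.63), where 18.8% of all genes were called lower. By edgeR 2 genes were higher at an unadjusted p under 0.05, a count whose share over all genes is not given here. DESeq2 and limma-voom called 0 higher. The fall was steepest for Uhrf1, from 46.1, 61.0 and 58.4 CPM to 1.28, 0.303 and 0.375 CPM (log2 -6.39 ± 0.76, adjusted p = 3.44e-06). Prim1, the catalytic primase subunit, went from 35.9, 33.9 and 44.9 CPM to 0, 0.606 and 1.12 CPM (log2 -6.05 ± 0.45, adjusted p = 1.69e-09), and Chaf1a from 16.5, 36.7 and 31.8 CPM to 0.766, 0.833 and 0.843 CPM (log2 -5.11 ± 0.39, adjusted p = 2.08e-09). Several stage IV libraries of these genes lay near or below the level of 3 counts, so the size of these folds depends on few reads. Better measured were Rrm2, at 12.9, 5.99 and 6.46 CPM at stage IV (log2 -4.97 ± 0.28, adjusted p = 3.15e-11), and Mcm2, a helicase subunit, which went from 88.5, 107 and 117 CPM to 4.51, 2.80 and 6.74 CPM (log2 -4.49 ± 0.26, adjusted p = 3.85e-11).

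Components of one complex fell by different amounts at stage IV. In the Mcm2 to Mcm7 helicase, Mcm4 went from 106, 91.1 and 66.0 CPM to 32.8, 51.6 and 44.2 CPM (log2 -1.03 ± 0.20, adjusted p = 0.000416), a smaller fall than that of Mcm2, whose 95% interval of -4.99 to -3.98 lies apart from that of Mcm4, -1.42 to -0.63. In the clamp loader, Rfc4 (log2 -3.11 ± 0.35) and Rfc3 (log2 -2.54 ± 0.37) fell, whereas Rfc1 (log2 -0.27 ± 0.15, adjusted p = 0.176) and Rfc2 (log2 0.44 ± 0.19, adjusted p = 0.082) were not called. Rfc2 was at 282, 361 and 430.4 CPM at stage IV. In the lagging strand polymerase delta, Pold2 (log2 -1.64 ± 0.29) and the catalytic Pold1 (log2 -0.94 ± 0.22) fell, while Pold3 was at 53.7, 48.5 and 50.3 CPM and 64.8, 63.9 and 58.4 CPM (log2 0.30 ± 0.13, adjusted p = 0.0973). Rpa1, the large subunit of the single strand binding protein used in replication and repair, and Slbp were the other 2 not called (log2 0.26 ± 0.17, adjusted p = 0.235, and -0.24 ± 0.17, adjusted p = 0.274).

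Over the whole course from stage I to stage IV in isotype libraries, 53 genes fell and 1 rose, where 33.9% of all genes were called lower and 32.3% higher, and 54 of the 54 calls held whichever library was left out. The median log2 fold change was -4.07. The largest falls with a stage I mean of at least 10 CPM were those of Exo1 (log2 -7.998 ± 0.61, adjusted p = 2.26e-10), Uhrf1 (log2 -7.76 ± 0.77, adjusted p = 6.85e-08), Prim1 (log2 -7.56 ± 0.46, adjusted p = 8.64e-12) and Gins1 (log2 -7.28 ± 0.57, adjusted p = 3.83e-10). At stage IV these 4 genes had 5, 23, 20 and 6 counts in all 3 libraries together, so the sizes and the order of their folds rest on few reads. The log2 fold change was -6.26 ± 0.27 for Mcm2, -5.65 ± 0.35 for Cdc6, -5.68 ± 0.30 for Tk1 and -2.08 ± 0.22 for E2f1. The small end was made up of Slbp (log2 -0.62 ± 0.17, adjusted p = 0.00266), Pold3 (log2 -0.71 ± 0.13, adjusted p = 8.96e-05) and Rfc1 (log2 -0.72 ± 0.15, adjusted p = 0.000284), with Rpa1 (log2 -0.36 ± 0.17, adjusted p = 0.058) and Rfc2 (log2 0.20 ± 0.19, adjusted p = 0.353) not called.

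Under anti-IL5 the genes were again high at stages I and II, lower at stage III and lowest at stage IV. The summed level was 8247, 7624 and 6911 CPM at stage I, 8797 and 8177 CPM at stage II, 2195, 2267 and 1884 CPM at stage III and 1395, 1599 and 1490.2 CPM at stage IV. From stage I to II, 2 genes rose, where 7.27% of all genes were called higher: E2f2, from 52.9, 42.2 and 24.4 CPM to 85.4 and 114 CPM (log2 1.33 ± 0.29, adjusted p = 0.00418), and Slbp, from 454, 427 and 359.9 CPM to 735 and 533 CPM (log2 0.62 ± 0.18, adjusted p = 0.029). The call of Slbp was lost in 3 of 5 fits that left out 1 library, those without stage I anti-IL5 replicate 2 or 3 or stage II anti-IL5 replicate 1. From stage II to III, 54 genes fell and E2f2 rose (log2 1.01 ± 0.30, adjusted p = 0.00962), where 19.7% of all genes were called lower and 19.8% higher. The median log2 fold change of this step was -2.57 under anti-IL5 beside -1.80 under isotype. From stage III to IV, 41 genes fell, where 13.4% of all genes were called lower, with a median of -1.73 beside -2.63 under isotype. Over all 4 stages 53 genes fell and 0 rose, where 32.8% of all genes were called lower, with a median of -4.31.

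The genes not called between stages III and IV under anti-IL5 included several that had fallen under isotype. Pcna was at 75.8, 68.8 and 52.5 CPM at stage III and 60.4, 72.4 and 51.4 CPM at stage IV (log2 -0.10 ± 0.18, adjusted p = 0.757). Orc1, the largest origin recognition subunit, Cdt1 and Pold1 were also not called (log2 0.28 ± 0.45, 0.18 ± 0.26 and 0.20 ± 0.22). Pold3 rose, from 36.4, 41.3 and 46.8 CPM to 58.9, 75.2 and 66.3 CPM (log2 0.69 ± 0.14, adjusted p = 0.000681), and so did Rfc2, from 254, 326 and 315.3 CPM to 485, 499 and 435 CPM (log2 0.66 ± 0.19, adjusted p = 0.0136), where 10.4% of all genes were called higher. Rfc2 was not called in 1 of 6 fits that left out 1 library (adjusted p = 0.0782). A call under 1 antibody and not under the other does not show that the steps differed; the test of that difference is given further on.

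**Figure D4:**
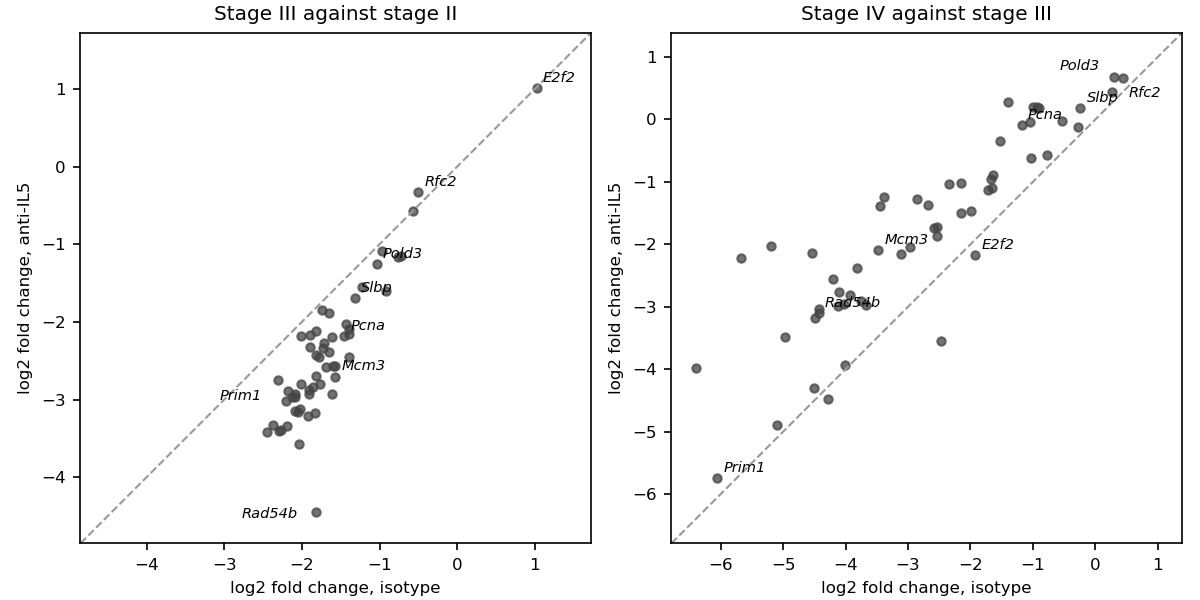
Log2 fold change of each of the 56 genes at a maturation step under isotype (horizontal) and under anti-IL5 (vertical); the dashed line marks equal change. At the step from stage II to III most points lie below the line (medians -1.80 and -2.57), and at the step from stage III to IV most lie above it (medians -2.63 and -1.73); both panels use the stage III libraries.

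Between antibodies at stage I, no replication gene was called higher or lower, where 4.42% of all genes were called by edgeR; DESeq2 and limma-voom also called 0, and edgeR on the stage I libraries alone called 1. At an unadjusted p under 0.05 by edgeR there were 3, of which 2 higher and 1 lower, where 1245 and 997 of all 12387 genes were. The median log2 fold change was -0.09. The antibodies did not overlap in 15 of the 56 genes and in 3522 of all genes. Rrm2 was at 794, 682 and 602 CPM under anti-IL5 against 443, 587 and 577 CPM under isotype, without overlap (log2 0.37 ± 0.23, 95% interval -0.07 to 0.82, adjusted p = 0.416). Slbp was at 454, 427 and 359.9 CPM against 290.1, 338 and 326 CPM, also without overlap (log2 0.38 ± 0.17, adjusted p = 0.223). Mcm3 was at 398, 362 and 365 CPM against 391, 493 and 444.4 CPM, which overlapped (log2 -0.24 ± 0.21, adjusted p = 0.611). For Pcna, Tk1, Cdc6, E2f1 and Ccne1 the log2 fold changes were 0.08 ± 0.18, 0.41 ± 0.23, -0.18 ± 0.27, -0.02 ± 0.21 and -0.02 ± 0.28. All 10 licensing genes had a negative log2 fold change, from -0.61 to -0.09, and none of them passed the test.

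At stage II, 0 of the 56 genes were called by edgeR, where 1.75% of all genes were. At an unadjusted p under 0.05, 2 were lower and 0 higher, where 904 and 774 of all 12387 genes were. The antibodies did not overlap in 22 of the 56 genes and in 4182 of all genes. The median log2 fold change was -0.20, with 44 of the 56 below 0. Mcm3 was at 422 and 381 CPM under anti-IL5 against 534 and 508 CPM, without overlap (log2 -0.38 ± 0.26, adjusted p = 0.58). Rrm2 was at 966 and 1042 CPM against 1150.2 and 863 CPM, which overlapped. The licensing genes were again all below 0, from -0.70 to -0.19, and with 2 libraries a group none of them passed. Stage II libraries of equal replicate number deviated alike from their group means under both antibodies (correlation 0.489), which the main fit did not use. Pcna, Cdc6, Tk1, Ccne1 and Slbp had log2 fold changes of -0.20 ± 0.22, -0.36 ± 0.33, 0.22 ± 0.28, -0.43 ± 0.34 and 0.05 ± 0.20, and that of E2f1 was -0.00 ± 0.26.

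At stage III, anti-IL5 libraries held less RNA of most replication genes. Of the 56 genes 30 were lower and 0 higher, where 5.05% of all genes were called lower and 1.32% higher. The median log2 fold change was -1.03 beside -0.01 over all genes, and 54 of the 56 were below 0. In 41 genes the libraries of the antibodies did not overlap, against 26% of all genes. The summed level was 2115 ± 203 CPM under anti-IL5 and 3435 ± 303.3 CPM under isotype (mean ± SD, n = 3). Leaving out 1 library at a time gave 18 to 29 calls; the lowest, 18, came without stage III anti-IL5 replicate 3, and 18 of the 30 genes were called in every such fit.

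Licensing genes fell in 7 of 10 cases. Mcm3 was at 70.0, 69.7 and 44.9 CPM under anti-IL5 against 156, 174 and 196 CPM under isotype (log2 -1.51 ± 0.22, adjusted p = 0.00028). Mcm2 was at 50.0, 37.1 and 38.2 CPM against 88.5, 107 and 117 CPM (log2 -1.32 ± 0.22, adjusted p = 0.000833), and Mcm5 at 60.4, 64.2 and 36.4 CPM against 123, 123 and 124 CPM (log2 -1.20 ± 0.21, adjusted p = 0.0012). In these 3 helicase subunits every anti-IL5 library was below every isotype library. Cdc6 was at 20.5, 10.5 and 14.6 CPM against 34.0, 35.9 and 31.0 CPM (log2 -1.15 ± 0.29, adjusted p = 0.0183), and the call was lost without anti-IL5 replicate 2 or 3 (highest adjusted p = 0.0939). The remaining called genes were Mcm6 (log2 -1.18 ± 0.18), Mcm7 (log2 -0.98 ± 0.15) and Orc6 (log2 -1.16 ± 0.26), the last lost without isotype replicate 3 or anti-IL5 replicate 3. Mcm4 (log2 -0.63 ± 0.20, adjusted p = 0.0646), Cdt1 (log2 -0.73 ± 0.26, adjusted p = 0.0955) and Orc1 (log2 -1.25 ± 0.44, adjusted p = 0.0898) were not called.

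Helicase activators were lower for 3 of 5 genes. Mcm10, which helps to start the assembled helicase, was at 8.63, 6.54 and 4.63 CPM against 12.98, 12.4 and 21.1 CPM (log2 -1.23 ± 0.36, adjusted p = 0.042). Gins1 (log2 -1.68 ± 0.42, adjusted p = 0.0199) and Gins2 (log2 -1.34 ± 0.37, adjusted p = 0.0312) had isotype means below 10 CPM. The calls of all 3 genes depended on single libraries: 2, 4 and 1 of 6 fits without 1 library kept them. Cdc45, their partner in the active helicase, was at 31.4, 36.0 and 33.2 CPM against 39.0, 42.8 and 35.8 CPM, which overlapped (log2 -0.23 ± 0.17, adjusted p = 0.487).

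Polymerase genes were lower for 3 of 9. Pold2 was at 5.39, 7.50 and 3.83 CPM against 18.1, 21.0 and 13.7 CPM (log2 -1.66 ± 0.30, adjusted p = 0.00172), and Pold1 at 32.4, 45.2 and 30.3 CPM against 91.0, 90.2 and 105 CPM (log2 -1.41 ± 0.22, adjusted p = 0.000596). Prim1 was at 22.4, 18.7 and 13.5 CPM against 35.9, 33.9 and 44.9 CPM (log2 -1.07 ± 0.32, adjusted p = 0.0457). None of these genes overlapped between antibodies, but the call of Prim1 held in only 1 of 6 fits without 1 library (highest adjusted p = 0.209). The third subunit of polymerase delta measured here, Pold3, was at 36.4, 41.3 and 46.8 CPM against 53.7, 48.5 and 50.3 CPM, without overlap and not called (log2 -0.29 ± 0.14, adjusted p = 0.213). Prim2, the other primase subunit, had a log2 fold change of -0.09 ± 0.29.

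Of the clamp and its loaders 4 of 7 fell. Pcna was at 75.8, 68.8 and 52.5 CPM against 115, 111 and 151 CPM (log2 -0.93 ± 0.18, adjusted p = 0.00375). Rfc5, a clamp loader subunit, was at 21.2, 24.6 and 12.6 CPM against 38.3, 38.9 and 38.4 CPM (log2 -0.99 ± 0.20, adjusted p = 0.0048), and Rfc4 at 7.75, 12.7 and 6.59 CPM against 15.1, 21.3 and 24.3 CPM (log2 -1.17 ± 0.31, adjusted p = 0.0268; not called in 4 of 6 fits without 1 library). Groups did not overlap for these genes. Dscc1 fell as well (log2 -1.25 ± 0.26, adjusted p = 0.00518). Rfc2 stood at 254, 326 and 315.3 CPM against 237, 252 and 304 CPM and Rfc1 at 63.0, 80.4 and 57.3 CPM against 74.1, 67.5 and 72.4 CPM. Both overlapped and were not called (log2 0.18 ± 0.19 and -0.09 ± 0.15).

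Okazaki fragment and single strand genes fell in 2 of 5 cases. Fen1 was at 36.0, 37.9 and 29.1 CPM against 63.0, 74.3 and 91.2 CPM (log2 -1.15 ± 0.25, adjusted p = 0.00664; 0.053 without anti-IL5 replicate 3). Rpa2 was at 31.4, 19.3 and 20.2 CPM against 31.7, 42.0 and 61.8 CPM (log2 -0.94 ± 0.25, adjusted p = 0.0302), with its highest anti-IL5 library just under its lowest isotype library and the call lost in 3 of 6 fits without 1 library. Lig1 (log2 -0.92 ± 0.29, adjusted p = 0.059), Rpa3 (log2 -0.61 ± 0.18, adjusted p = 0.0527) and Rpa1 (log2 -0.29 ± 0.17, adjusted p = 0.326) were not called.

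All 5 nucleotide supply genes fell. Rrm2 was at 106, 122 and 97.0 CPM against 238, 207 and 353 CPM (log2 -1.30 ± 0.23, adjusted p = 0.00181). Tyms was at 22.2, 24.2 and 23.8 CPM against 41.2, 60.1 and 62.4 CPM (log2 -1.22 ± 0.19, adjusted p = 0.000545), and Dut at 17.5, 21.3 and 12.8 CPM against 32.8, 39.5 and 47.8 CPM (log2 -1.22 ± 0.20, adjusted p = 0.000827). All anti-IL5 libraries of these genes were below all isotype libraries. Rrm1, the large reductase subunit, fell too (log2 -1.05 ± 0.22, adjusted p = 0.00486). Tk1 was at 17.4, 16.2 and 15.2 CPM against 16.5, 32.4 and 38.1 CPM, where isotype replicate 1 lay among the anti-IL5 libraries, and its call (log2 -0.84 ± 0.24, adjusted p = 0.0372) was kept in 1 of 6 fits without 1 library.

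Of the chromatin copying genes only Chaf1b was called, at 18.8, 20.4 and 15.8 CPM against 35.6, 38.6 and 37.9 CPM (log2 -1.03 ± 0.20, adjusted p = 0.00363). Slbp was at 200.2, 206 and 180.4 CPM against 251, 244 and 242 CPM, without overlap and not called (log2 -0.33 ± 0.17, adjusted p = 0.255); Chaf1a and Uhrf1 had log2 fold changes of -0.78 ± 0.29 and -0.93 ± 0.52. Repair genes fell in 3 of 6 cases, and Rad54b, a paralog of the recombination motor Rad54, had the largest fall of the list, at 1.18, 2.31 and 2.76 CPM against 8.02, 11.9 and 10.2 CPM (log2 -2.26 ± 0.45, adjusted p = 0.00384). Rad54l was at 14.9, 20.8 and 8.01 CPM against 30.2, 26.7 and 32.4 CPM (log2 -1.03 ± 0.29, adjusted p = 0.0375) and Exo1 had an isotype mean below 10 CPM (log2 -1.60 ± 0.43, adjusted p = 0.027). Both calls were kept in 2 of 6 fits without 1 library. Brca1, Brca2 and the checkpoint adaptor Clspn were not called (log2 -1.10 ± 0.49, -0.09 ± 0.28 and -1.06 ± 0.36).

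At the G1/S switch both E cyclins fell and the E2F genes were not called. Ccne1 was at 7.45, 9.04 and 6.14 CPM against 17.3, 22.2 and 26.8 CPM (log2 -1.55 ± 0.30, adjusted p = 0.00343) and Ccne2 at 4.81, 6.73 and 2.23 CPM against 14.1, 14.3 and 12.6 CPM (log2 -1.58 ± 0.33, adjusted p = 0.0062), without overlap in either gene. E2f1 was at 67.8, 60.2 and 54.2 CPM against 93.9, 70.7 and 75.0 CPM (log2 -0.39 ± 0.22, 95% interval -0.82 to 0.03, adjusted p = 0.298), also without overlap. E2f2 was at 239, 179.6 and 185 CPM against 209, 188 and 158 CPM, which overlapped (log2 0.12 ± 0.26, adjusted p = 0.836). E2f8 was not called (log2 -0.96 ± 0.33, adjusted p = 0.0885).

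**Figure D5:**
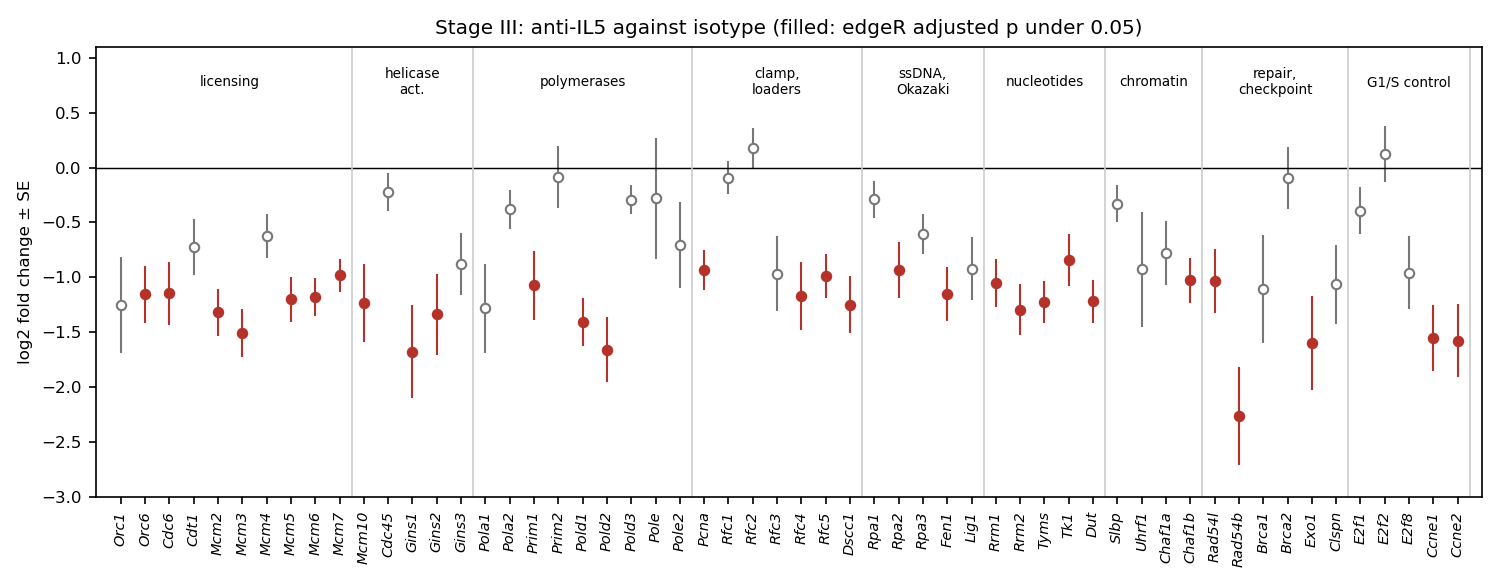
Log2 fold change (± SE) of each of the 56 genes between anti-IL5 and isotype libraries at stage III, grouped by role; filled points are called by edgeR at adjusted p under 0.05. The 30 filled points are all below 0, from -2.26 for Rad54b to -0.84 for Tk1, and E2f2 and Rfc2 are the only points above 0.

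Other measures moved with antibody at stage III beside these genes. The 10 eosinophil-defining genes summed to 31932, 31870.5 and 26609 CPM under anti-IL5 and 48141, 42600.4 and 49569.7 CPM under isotype, and the 9 basophil and mast cell genes to 648, 599.6 and 603 CPM and 1357, 1133 and 1751 CPM, each without overlap. Members of the first list went both ways: 6 of the 10 had a lower mean under anti-IL5, with Epx at 4698 against 13873 CPM, and 4 a higher one, with Ccr3 at 785 against 443 CPM and Il5ra, the IL-5 receptor subunit, at 351 against 267 CPM. Of the 9 basophil and mast cell genes 8 were lower and 0 higher. Among them the mast cell protease Cpa3 had a mean of 11.7 CPM under anti-IL5 and 212 CPM under isotype, and the basophil protease Mcpt8 0.615 and 10.6 CPM. Mature neutrophil genes ranged over 6695 to 7871 CPM and 4789 to 7729 CPM, with overlap; the granule gene Ngp made up most of both sums, 7 of the 8 genes had a higher mean under anti-IL5, and the gelatinase Mmp9 was at 761 against 207 CPM. The summed monocyte and macrophage genes were at 2780.3 to 3308 CPM and 3484 to 4565 CPM, without overlap, but 5 of the 11 had a higher mean, such as Csf1r at 367 against 247 CPM, and 6 a lower one, such as Ly6c2 at 1235 against 1901 CPM. The part of these differences in the replication result was not tested.

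At stage IV no replication gene was called by edgeR, where 1.05% of all genes were, and DESeq2 called 1. By edgeR 9 had an unadjusted p under 0.05, of which 5 higher and 4 lower, where 475 and 664 of all 12387 genes were. The antibodies did not overlap in 8 of the 56 genes and in 1958 of all genes. The median log2 fold change was 0.08. Mcm3 was at 10.7, 16.4 and 15.9 CPM under anti-IL5 against 9.78, 15.0 and 22.6 CPM (log2 -0.13 ± 0.23, adjusted p = 0.966), and Pcna at 60.4, 72.4 and 51.4 CPM against 52.5, 57.4 and 56.4 CPM (log2 0.15 ± 0.18, adjusted p = 0.937). Rrm2 was at 7.75, 9.70 and 11.3 CPM against 12.9, 5.99 and 6.46 CPM (log2 0.19 ± 0.26, adjusted p = 0.947). The libraries of both antibodies overlapped in each of these genes. Without overlap, Ccne1 was at 0.596, 2.05 and 3.33 CPM against 3.57, 4.17 and 3.65 CPM, the lowest anti-IL5 value being near the level of 3 counts (log2 -0.88 ± 0.36, adjusted p = 0.394). Cdc6, Tk1, E2f1 and Slbp had log2 fold changes of -0.30 ± 0.39, 0.28 ± 0.34, 0.17 ± 0.22 and 0.09 ± 0.17.

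The differences of the antibody effect between stages were tested as contrasts of the same fit. Between stages IV and III, 6 genes had a higher (less negative) effect at stage IV, where 0.541% of all genes were called higher: the helicase subunits Mcm3 (1.38 ± 0.32, adjusted p = 0.0451), Mcm6 (1.31 ± 0.25, adjusted p = 0.0155) and Mcm7 (1.30 ± 0.21, adjusted p = 0.00884), the nucleotide enzymes Tyms (1.39 ± 0.32, adjusted p = 0.0451) and Dut (1.57 ± 0.30, adjusted p = 0.0155), and Dscc1 (2.06 ± 0.42, adjusted p = 0.0221), all as differences of log2 fold changes. Leaving out 1 library gave 2 to 6 of these calls, 3 without stage III isotype replicate 3, stage IV isotype replicate 2 or stage III anti-IL5 replicate 2, and 2 without stage IV anti-IL5 replicate 2; Mcm7 and Dut were called each time. Between stages III and I, 3 genes had a lower effect at stage III, where 0.363% of all genes were called lower: Rrm2 (-1.67 ± 0.32, adjusted p = 0.0266), Tyms (-1.31 ± 0.26, adjusted p = 0.0275) and Rad54b (-2.69 ± 0.59, adjusted p = 0.0439). No gene of these 3 was called in every fit without 1 library, which gave 0 to 5 calls: 0 without stage I isotype replicate 1, stage I anti-IL5 replicate 1 or 2, stage III isotype replicate 3 or stage III anti-IL5 replicate 1 or 3, 1 without stage I isotype replicate 2 or 3, and 5 without stage III anti-IL5 replicate 2. With the replicate number as a block nested in antibody, chosen after seeing the data, 10 genes were called lower for this difference, all 3 among them. How many of all genes that fit called is not given here, so the 10 are not read as an excess. Between stages III and II, 0 genes of the list and 0% of all genes were called by edgeR, and DESeq2 called 1 of the list. By edgeR 25 of the list had an unadjusted p under 0.05. The share of all genes at that unadjusted level is not given here, so the 25 are not read as an excess. Between stages II and I, edgeR and DESeq2 called 0 of the list, and 0 had an unadjusted p under 0.05 by edgeR. So for most of the 30 genes lower at stage III, the effect was not shown to differ from that at the other stages. The size of the Dscc1 difference rests on few reads at stage IV, 27 counts under isotype and 41 under anti-IL5.

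Beyond the 56, a list of 68 other replication genes, from origin factors to the retinoblastoma family, was counted in the same way. At stage III 18 of the 68 were lower (26.5%, beside 5.05% of all genes) and 0 higher, with a median log2 fold change of -0.59. Hells, a chromatin remodeller of replicating cells, had means of 6.41 CPM under anti-IL5 and 23.1 CPM under isotype (log2 -1.85 ± 0.26, adjusted p = 0.000194). The fork protection partners Timeless and Tipin fell together (log2 -1.73 ± 0.34, adjusted p = 0.00401, and -1.43 ± 0.21, adjusted p = 0.000279), and Mtbp, which acts with Ticrr in origin firing, fell as well (log2 -1.36 ± 0.29, adjusted p = 0.00641). At stage I 1 of the 68 was called (1.47%, beside 4.42% of all genes), Lin54, higher (log2 0.72 ± 0.20, adjusted p = 0.0423). At stage II 1 was called, lower (1.47%, beside 1.75% of all genes). At stage IV edgeR called 0 of this list, where 1.05% of all genes were called. There 10 had an unadjusted p under 0.05, 6 higher and 4 lower, where 475 and 664 of all 12387 genes were.

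The summed level of genes of the following cell cycle phase, G2/M, was higher under anti-IL5 at stage I. A list of 59 tested G2/M genes, such as mitotic kinases and kinetochore subunits, summed to 12754, 13359 and 11404 CPM under anti-IL5 at stage I and 6590.2, 9222 and 8591 CPM under isotype, without overlap. At stage I 6 of the 59 were called higher, where 2.61% of all genes were, and 58 had a positive log2 fold change (median 0.65), while the 56 replication genes had 23 positive. Of the 6 called genes the kinetochore genes Ndc80 (log2 1.02 ± 0.21, adjusted p = 0.00572) and Spc25 (log2 0.96 ± 0.23, adjusted p = 0.021) had the largest change, followed by Racgap1, of the cytokinesis machinery (log2 0.76 ± 0.21, adjusted p = 0.0459), and Cdc20, an activator of the anaphase-promoting complex (log2 0.73 ± 0.21, adjusted p = 0.0456). The ratio of the replication sum to the G2/M sum was 0.647, 0.571 and 0.606 under anti-IL5 and 1.03, 0.926 and 0.915 under isotype at stage I. It was 0.618 and 0.406 and 0.911 and 0.648 at stage II, again without overlap, and overlapped at stages III and IV. At stage II the G2/M median was 0.48, with 58 of 59 positive and 0 called by edgeR. At an unadjusted p under 0.05, 6 were higher, where 774 of all 12387 genes were. At stage III 8 of the 59 were called lower (median -0.71), a share of 13.6% beside 53.6% of the replication genes and 5.05% of all genes. First came the condensin subunit Ncaph (log2 -1.32 ± 0.26, adjusted p = 0.00391) and the kinetochore gene Spc24 (log2 -1.13 ± 0.18, adjusted p = 0.000808). The mitotic kinase Aurkb (log2 -1.001 ± 0.26, adjusted p = 0.0241) and Cdca5, a guard of sister chromatid cohesion (log2 -0.996 ± 0.24, adjusted p = 0.017), followed. A negative log2 fold change was found in 58 of the 59. At an unadjusted p under 0.05 by edgeR, 31 of the 59 and 44 of the 56 replication genes were lower, where 1735 of all 12387 genes were. Erythroid genes were lower at stage I under anti-IL5, 77.1 to 85.3 against 132 to 167 CPM, and B lineage genes higher, 70.2 to 113 against 34.8 to 48.8 CPM, mostly through Jchain at 44.4 against 5.04 CPM. Stem and progenitor genes summed to 1496, 1439 and 1549.7 CPM under anti-IL5 and 1301, 1076 and 1247 CPM under isotype, without overlap, with 8 of the 12 higher in the mean, among them Myb at 746 against 537 CPM. The part of these lists in the stage I ratio was not tested.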

How the data were processed

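RNA of the sorted cells was amplified with SMART-Seq v4 (17 cycles) and made into libraries with Nextera XT, per the labels' protocols; such a kit does not mark strand, so reads of overlapping or antisense genes cannot be told apart. The submitters' processing notes name STAR 2.6.1a, DESeq2 and build mm10; which program counted the reads, on which annotation and with which strand option, is not given in the sources used here. The authors deposited raw counts per gene for each sample. Reads listed as ambiguous (1.86% to 2.39%) or without a feature (12.7% to 22.1%) stand on 2 lines of each file and entered no total. No pair of libraries had identical counts in more than 2.17% of genes.

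Of 24982 genes, 12387 passed edgeR's filterByExpr over the 8 groups. All 22 libraries were fitted together with TMM scaling by edgeR 4.0.16 (quasi-likelihood test) in R 4.3.3, with 1 mean per stage and antibody, and contrasts gave each comparison. P-values were Benjamini-Hochberg adjusted over all tested genes, and a gene was called at an adjusted p under 0.05. The standard error (SE) printed after ± beside a log2 fold change is the log2 fold change divided by the square root of the F statistic; elsewhere ± is the SD. CPM are counts per 1000000 of TMM-scaled library totals. Libraries held 7161264 to 14781250 counts, and the floor of 3 counts covers counting error only. The fit was tested on simulated data. DESeq2 1.42.0, limma-voom (limma 3.58.1), RLE size factors, no filter, the compared groups alone, the replicate number as a block and leaving out each library were tried as alternatives.

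The genes, lists and tests were chosen with earlier results of these data known. Values in every library were given for up to 3 called genes per role with the largest change whose higher group averaged 10 CPM or more, and for Pcna, Mcm3, Rrm2, Tk1, Cdc6, E2f1, Ccne1 and Slbp. Where nearly the whole list fell, from stage III to IV, from I to IV and at the steps under anti-IL5, library values were limited to the genes the text turns on, which were chosen after their values were seen. The labels do not say that equal replicate numbers mark one animal, or that replicates are separate ones. By the correlation of deviations from group means, all 3 pairs of equal number exceeded 0.1 between stages III and IV and between I and III under each antibody (0.125 to 0.296), and between I and IV under isotype. Between stages I and II under anti-IL5, 2 of 2 pairs did as well (0.208 and 0.219). The main fit still did not use the numbers as pairs. A replicate block nested in antibody was fitted only as an alternative and compared with it. P-values measure only the spread between these samples, which may be technical.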

Additional observations from a re-analysis of the deposited data

Results flagged for a closer look

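The effect of anti-IL5 differed between stages, by the test of the difference itself, for 8 genes; 2 of the 6 calls between stages III and IV, and 0 of the 3 between stages I and III, held whichever library was left out, and the compared groups alone called 1 of the list between stages III and IV. From stage III to stage IV the log2 fold change between antibodies rose by 1.38 for Mcm3, 1.31 for Mcm6 and 1.30 for Mcm7, which are subunits of the replicative helicase. It rose by 1.39 for Tyms and 1.57 for Dut, both enzymes of thymidylate supply, and by 2.06 for Dscc1 of the alternative clamp loader. At stage IV Dscc1 had only 27 counts under isotype and 41 under anti-IL5, each in 3 libraries together. At stage III all 6 genes were lower under anti-IL5, and at stage IV none of them was called. From stage I to stage III the log2 fold change moved by -1.67 for Rrm2, -1.31 for Tyms and -2.69 for Rad54b. These differences share the stage III libraries and are not independent of each other.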

How the results depend on the processing

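RLE size factors and no filter on low counts left all 16 counts of called genes within 1.5 times of those given. The stage III count of 30 was 37 by DESeq2, 28 by limma-voom, 21 with the compared groups alone and 36 with the replicate block, all lower. At stage I, 1 gene was called with the compared groups alone, and at stage IV 1 by DESeq2. From stage I to II limma-voom called 8 under isotype; under anti-IL5 the compared groups alone called 1. For the difference of effects between stages IV and III, DESeq2 called 15, limma-voom 2 and the compared groups alone 1. Between III and I these gave 16, 9 and 17, and between III and II DESeq2 gave 1. The counts of all genes called under these alternatives are not given here, and the cause of these shifts was not tested. Leaving out 1 library gave 18 to 29 calls at stage III, 1 to 7 from stage I to II under isotype, 1 to 2 under anti-IL5, 2 to 6 for the difference between stages IV and III and 0 to 5 for that between III and I.

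Between antibodies of one stage, 2 of 11 pairs of equal replicate number exceeded a correlation of 0.1, against 0 of 20 pairs of unequal number. All 11 were positive, the lowest at 0.0204. The 2 were the stage II pairs at 0.489, which with 2 libraries a group are 1 value with its mirror image. The main fit did not use the numbers as pairs, also not at stage II. With the replicate block the difference between stages III and I gave 5 calls. Within an antibody 21 of 30 pairs of equal number exceeded 0.1, against 2 of 60 pairs of unequal number. With the replicate block nested in antibody the step from stage I to II under anti-IL5 gave 1 call and the difference between stages III and I gave 10. The other counts stayed within 1.5 times under both blocks, for which the counts of all genes called are not given here.

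Direction turned for a called gene only in E2f8 from stage II to III under isotype (log2 -1.49 to 0.11 without 1 library), among the named genes of each comparison. It also turned for differences between antibodies that were not called. At stage II, Rrm2 was 0.0232 with RLE size factors, 0.0230 by DESeq2, 0.0400 without the filter, 0.009996 by limma-voom and 0.00495 with the replicate block, and E2f1 was 0.0247, 0.0245 and 0.0415 under the first 3 of these. Without 1 library the log2 fold change ran at stage I from -0.20 to 0.0860 for E2f1 and -0.11 to 0.12 for Ccne1. At stage II it ran from -0.51 to 0.23 for Pcna, -0.19 to 0.26 for Rrm2, -0.27 to 0.29 for E2f1, -0.76 to 0.0259 for Ccne1 and -0.28 to 0.52 for Slbp. At stage IV it ran from -0.38 to 0.21 for Mcm3, -0.0149 to 0.63 for Rrm2, -0.63 to 0.21 for Cdc6, -0.0363 to 0.33 for E2f1 and -0.0170 to 0.16 for Slbp. Few reads stand behind the largest falls at stage IV, down to 5 counts in 3 libraries for Exo1.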
